A study of Homo sapiens with 18 samples.

Results

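The lung epithelial lineage was followed through 10 marker genes in 3 human cancer cell lines: NKX2-1, FOXA1, FOXA2, HOPX, NAPSA, SFTPB, SFTPD, SLC34A2, SCGB3A2 and KRT7. They were chosen by name, as rows of the expression tables with these symbols, and 10 of 10 were listed among the 25673 genes of the RKO table, the 19881 of the COLO 201 table and the 19977 of the H1975 table. H1975 is a lung adenocarcinoma line, and RKO and COLO 201 are colon cancer lines. In all groups the cells carried the same tetracycline-inducible short hairpin RNA against MUC1, a transmembrane mucin, so the vehicle cells hold the hairpin construct too. Each line had 3 columns read as vehicle (0.1% DMSO) and 3 columns with 500 ng/ml doxycycline, which switches the hairpin on. RKO was grown in EMEM and the other lines in RPMI1640, and each line stands for itself alone as a model of its tissue. Columns of a control hairpin are not analysed here, so an effect of doxycycline itself and an effect of the hairpin cannot be told apart. The sample labels name the same agent in all 18 records, so the arm comes from the column headings, and in RKO the reading of the unsigned columns as vehicle is an inference.

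The lung epithelium arises from foregut endoderm under the homeodomain factor NKX2-1, which acts with the forkhead factors FOXA1 and FOXA2 to switch on the genes of alveolar type 2 cells and club cells. Type 2 cells make surfactant, the film of lipid and protein that keeps the alveoli open. NKX2-1 and NAPSA are used in pathology to recognise lung adenocarcinoma, and KRT7 is a keratin of simple epithelia that lung tumours usually keep and colon tumours usually lack.

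Values are TPM, the share of a column's transcripts scaled for gene length, and the read depth behind them is unknown. A change is the doxycycline mean minus the vehicle mean of log2(TPM + 1), with n = 3 per arm and limma's standard error. It is called at a Benjamini-Hochberg adjusted p under 0.05 over all genes with a mean of at least 1 TPM. A log2(TPM + 1) change understates the change of genes near 1 TPM. The labels speak of cultures in triplicate and give no more on how the columns of a line differ, so the p-values measure only the spread between them, which may be technical. A column held 14935 to 16935 expressed genes in the RKO table, 14687 to 15194 in that of COLO 201, and 15235 to 16083 in that of H1975. MUC1, the targeted gene, separated the arms of each line without overlap, lower with doxycycline, with log2 changes of -1.88 ± 0.43 in RKO, -2.43 ± 0.08 in COLO 201 and -3.46 ± 0.10 in H1975 (limma adjusted p = 0.0027, 3.5e-10 and 4.1e-11). An exact two-sided permutation test of 3 against 3 columns gave p = 0.1 in each line, and no split of 6 columns can give less. RKO vehicle column 1 stood apart: a list of 11 mesenchymal genes summed to 787 TPM there against at most 35.5 TPM in the other 5 columns. MUC1 read 15.2 TPM in that column and 1.24 and 1.03 TPM in the other RKO vehicle columns, against 0.108, 0.105 and 0.204 TPM with doxycycline, and without that column it fell under the 1 TPM minimum. The MUC1 call in RKO held in 5 of the 12 alternatives that tested it (adjusted p up to 0.26).

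The promoters of NKX2-1, NAPSA and SCGB3A2 are shown because NKX2-1 acts to switch on genes of alveolar type 2 cells and club cells. NKX2-1 also shares a start region with its neighbour SFTA3, whose level is given further down. Sequences are RefSeq promoters of GRCh38.p14, from 250 bases before to 50 after an annotated start, written 5′ to 3′ on the gene's strand. Capitals mark CTCAAG and CAAGTG, core letters of NKX2-1-type sites, and TGTTTAC and TATTTAC, forkhead-type letters of the kind FOXA proteins bind, on either strand. CTCAAG and CAAGTG share the letters CAAG and can overlap.
NKX2-1 and SFTA3 shared start, chr14:36519507-36519806, minus strand: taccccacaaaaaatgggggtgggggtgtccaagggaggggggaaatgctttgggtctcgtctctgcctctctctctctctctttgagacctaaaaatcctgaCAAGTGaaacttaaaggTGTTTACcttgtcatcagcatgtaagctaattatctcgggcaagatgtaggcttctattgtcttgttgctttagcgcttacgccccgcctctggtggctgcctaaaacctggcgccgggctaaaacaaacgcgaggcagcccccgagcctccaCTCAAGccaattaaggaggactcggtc
NKX2-1 upstream start, chr14:36520183-36520482, minus strand: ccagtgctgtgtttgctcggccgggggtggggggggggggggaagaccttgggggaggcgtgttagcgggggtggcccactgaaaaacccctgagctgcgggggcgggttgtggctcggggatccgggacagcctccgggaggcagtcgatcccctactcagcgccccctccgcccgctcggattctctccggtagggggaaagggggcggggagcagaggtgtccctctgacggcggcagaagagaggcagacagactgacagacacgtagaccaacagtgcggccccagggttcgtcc
NAPSA upstream start, chr19:50369253-50369552, minus strand: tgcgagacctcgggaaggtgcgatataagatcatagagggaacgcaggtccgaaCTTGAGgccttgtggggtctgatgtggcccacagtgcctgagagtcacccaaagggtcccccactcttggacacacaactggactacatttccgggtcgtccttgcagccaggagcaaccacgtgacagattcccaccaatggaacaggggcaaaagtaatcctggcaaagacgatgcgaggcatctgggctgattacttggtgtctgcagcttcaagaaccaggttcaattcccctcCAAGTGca
SCGB3A2, chr5:147878461-147878760, plus strand: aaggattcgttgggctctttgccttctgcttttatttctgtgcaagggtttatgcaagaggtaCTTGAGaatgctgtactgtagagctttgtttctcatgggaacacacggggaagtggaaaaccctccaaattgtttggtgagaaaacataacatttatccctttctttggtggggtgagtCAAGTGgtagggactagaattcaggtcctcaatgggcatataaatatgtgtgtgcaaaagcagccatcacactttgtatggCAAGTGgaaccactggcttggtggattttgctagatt
The shared NKX2-1 and SFTA3 region held CAAGTG at -147, TGTTTAC at -130 and CTCAAG at 24, counted from the start site to the first base of the match. The upstream NKX2-1 start held none of the 4 motifs. The upstream NAPSA region held CTCAAG at -196 on the opposite strand and CAAGTG at 43. Another NAPSA start, chr19:50365590-50365889, held none of the 4 motifs. SCGB3A2 held 3 NKX2-1-type matches, at -187, -68 and 14. Among the members not printed, FOXA1 held NKX2-1-type matches at -46 and -12, and a SLC34A2 start held a match of that type at -66. A HOPX start held a forkhead match at -73. No SFTPB or SFTPD promoter held a match. Of the 10 genes, 8 matched the promoter table, with 13 promoters, of which 5 held an NKX2-1-type match and 2 a forkhead match. Of the 35116 promoters in the table, 21.7% held CTCAAG or CAAGTG (12.4% and 11.5% for each motif) and 5.97% held TGTTTAC or TATTTAC (3.42% and 2.67%). A match is a description of letters and says nothing on binding.

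In H1975, 4 of the lineage genes fell with doxycycline (NKX2-1, NAPSA, HOPX and KRT7), 1 rose (FOXA2), 2 were tested without a call (FOXA1 and SLC34A2), and 3 were too low to test (SFTPB, SFTPD and SCGB3A2). Thus 5 of 7 tested members were called, where 38.5% of the 12359 genes tested in H1975 were called, 2959 higher and 1800 lower. After the columns were rescaled by their median ratio, that split was 2285 higher and 2464 lower, and each of the 5 calls remained with its direction. The median change of the 7 members was -0.41, against 0.06 over all genes tested. In bulk samples such as these, fewer cells that express a gene and less RNA per cell cannot be told apart.

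**Figure D1:**
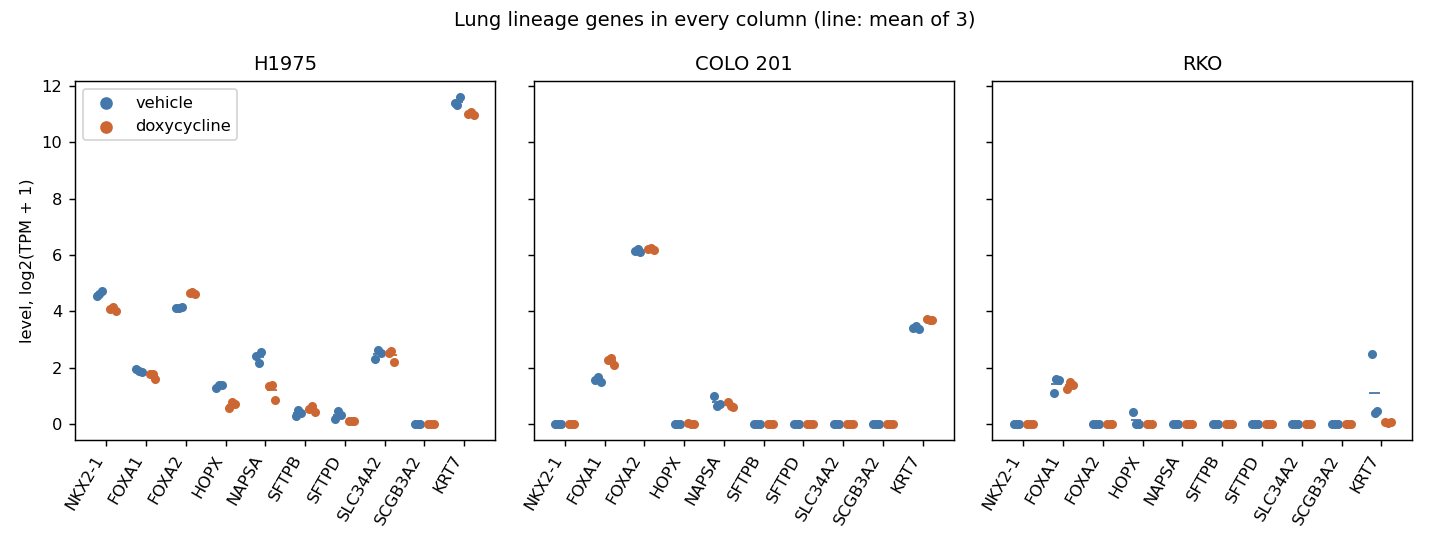
Level of each lung lineage gene as log2(TPM + 1) in every column of H1975, COLO 201 and RKO. Points are single columns (blue vehicle, orange doxycycline) and short lines are means of 3. KRT7 was the highest member in H1975, at 2034 to 3111 TPM, and NKX2-1 was listed at 0 in both colon lines.

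NKX2-1 (GRCh38 chromosome 14, 36516392 to 36521149, minus strand), the homeodomain factor of the lung lineage, stood at 22.4, 23.5 and 25.6 TPM in the H1975 vehicle columns and at 15.9, 16.9 and 15.1 TPM with doxycycline. The arms did not overlap, and each doxycycline column was lower than each vehicle column. The mean fell from 23.8 ± 1.62 (SD, n = 3) to 15.97 ± 0.904 TPM, which is 67.1% of vehicle and a log2 change of -0.55 ± 0.08 (limma adjusted p = 9.9e-05). An antisense gene, NKX2-1-AS1, overlaps it, and the processed transcript AL132857.1 overlaps both NKX2-1 and SFTA3 on their own strand. Whether the counting used strand is not given in the sources used here. NKX2-1 was listed at 0 in all columns of RKO and COLO 201.

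FOXA2 (chromosome 20, 22581005 to 22585455, minus strand), a forkhead factor that opens chromatin at endodermal genes, moved the other way. It stood at 16.2, 16.4 and 16.6 TPM with vehicle and at 23.9, 24.8 and 23.5 TPM with doxycycline in H1975. The vehicle columns lay within a narrow range and all doxycycline columns were above them. The mean rose from 16.4 ± 0.193 to 24.1 ± 0.673 TPM (SD, n = 3), 147% of vehicle and a log2 change of 0.52 ± 0.07 (limma adjusted p = 5.2e-05). AL121722.1, a protein-coding entry on the same strand, overlaps FOXA2.

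FOXA1 (chromosome 14, 37589984 to 37596059, minus strand), the paralog of FOXA2 with the same DNA-binding forkhead domain, was low in H1975. Its columns read 2.82, 2.68 and 2.61 TPM with vehicle and 2.45, 2.42 and 2.05 TPM with doxycycline. The arms did not overlap, but the log2 change of -0.16 ± 0.09 was not called (limma adjusted p = 0.15). FOXA1 starts 1074.9 kb from the NKX2-1 start on the same chromosome, and TTC6 overlaps it on the other strand.

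HOPX (chromosome 4, 56647988 to 56681899, minus strand), a small homeodomain protein without DNA binding of its own that marks alveolar type 1 cells, stood at 1.41, 1.64 and 1.59 TPM with vehicle and at 0.495, 0.724 and 0.626 TPM with doxycycline. The arms did not overlap. The mean fell from 1.55 ± 0.121 to 0.615 ± 0.115 TPM (SD, n = 3), 39.8% of vehicle and a log2 change of -0.66 ± 0.10 (limma adjusted p = 1.5e-04). HOPX met the 1 TPM minimum through its vehicle columns, so that entry into the test and direction are not independent. Its call held with no minimum, and it dropped below the minimum without vehicle column 2 or without vehicle column 3.

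NAPSA (chromosome 19, 50358477 to 50365830, minus strand), the aspartic protease napsin A that processes the SFTPB precursor in type 2 cells, had the largest fall among the tested members in H1975. It stood at 4.28, 3.52 and 4.87 TPM with vehicle and at 1.55, 1.59 and 0.813 TPM with doxycycline. All 3 doxycycline columns lay below the lowest vehicle column. The mean fell from 4.22 ± 0.677 to 1.32 ± 0.439 TPM (SD, n = 3), 31.2% of vehicle and a log2 change of -1.18 ± 0.13 (limma adjusted p = 1.8e-05). NAPSA overlaps NR1H2, which lies on the other strand.

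The surfactant proteins themselves were near 0. SFTPB (chromosome 2, 85657314 to 85668741, minus strand), the hydrophobic surfactant protein that spreads the lipid film, read 0.205, 0.421 and 0.309 TPM with vehicle and 0.452, 0.561 and 0.338 TPM with doxycycline in H1975, with overlapping arms and no test at the 1 TPM minimum. SFTPD (chromosome 10, 79937740 to 79982614, minus strand), a secreted collectin of innate defence, read 0.127, 0.364 and 0.230 TPM with vehicle and 0.062, 0.066 and 0.070 TPM with doxycycline. Its arms did not overlap, and with no minimum its log2 change was -0.21 (limma adjusted p = 0.048), at levels under 0.4 TPM.

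SLC34A2 (chromosome 4, 25648011 to 25678748, plus strand), the phosphate transporter of the type 2 cell surface, was not called. Its columns read 3.92, 5.25 and 4.75 TPM with vehicle and 4.76, 5.03 and 3.63 TPM with doxycycline. The arms overlapped, with a log2 change of -0.05 ± 0.11 (limma adjusted p = 0.78). SCGB3A2 (chromosome 5, 147870682 to 147882191, plus strand), a small secretoglobin of airway club cells, was listed at 0 in all 18 columns.

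KRT7 (chromosome 12, 52232520 to 52252186, plus strand), the type II keratin of simple ducts and glands, was the most abundant member, at percentile 99.8 of the genes above 0 in H1975 by mean TPM. It stood at 2692, 2548 and 3111 TPM with vehicle and at 2064, 2167 and 2034 TPM with doxycycline. The arms did not overlap. The mean fell from 2784 ± 293 to 2089 ± 69.5 TPM (SD, n = 3), a log2 change of -0.41 ± 0.07 (limma adjusted p = 7.5e-04). KRT86 and the antisense gene KRT7-AS overlap KRT7.

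Below KRT7, the percentiles among the genes above 0 in H1975 were 60.2 for FOXA2, 59.8 for NKX2-1, 37.8 for SLC34A2, 33.8 for NAPSA, 33.0 for FOXA1 and 27.6 for HOPX, all from the mean TPM of the 6 columns. FOXA2 and NKX2-1 changed places between the arms: in vehicle columns NKX2-1 was above FOXA2 in all 3, and with doxycycline FOXA2 was above NKX2-1 in all 3. NAPSA and FOXA1 did so too: all vehicle columns of NAPSA were above those of FOXA1, and all doxycycline columns below. SLC34A2 and NAPSA overlapped in their vehicle columns.

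**Figure D2:**
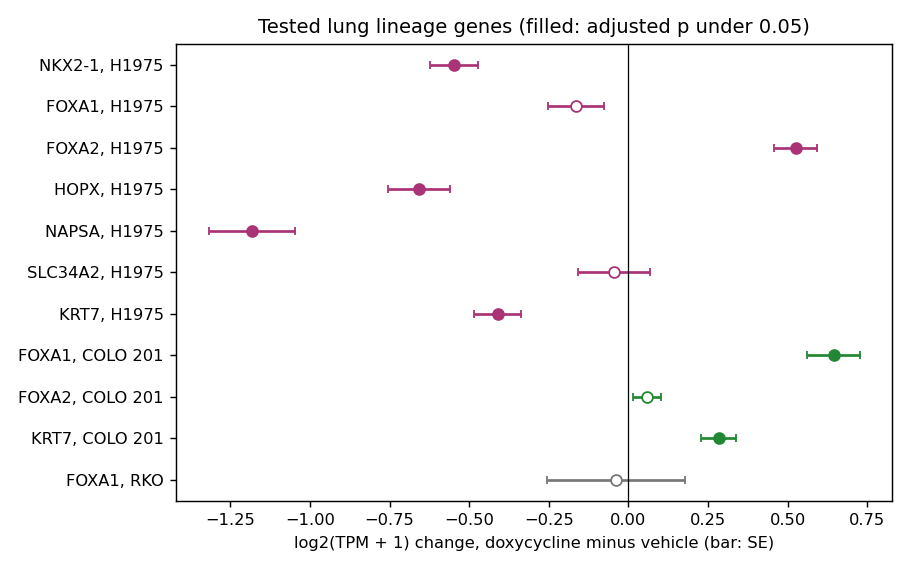
Change of each tested lung lineage gene on the log2(TPM + 1) scale, doxycycline minus vehicle, with its standard error, for H1975, COLO 201 and RKO. Filled points passed an adjusted p of 0.05. NAPSA in H1975 lies farthest to the left, at -1.18, and FOXA1 in COLO 201 farthest to the right, at 0.64.

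The genes around NKX2-1 were then read across the 3 lines. They are the protein-coding genes within or reaching into 500 kb on each side of the NKX2-1 start. That window was chosen after values had been seen. Distances follow chromosome coordinates. NKX2-1 lies on the minus strand, so a negative distance is downstream of its start, unlike the promoter positions above. SFTA3, a surfactant-associated gene with its start at -7.3 kb on the same strand and with a RefSeq start in the printed region, stood at 9.28, 10.2 and 10.9 TPM with vehicle and at 4.66, 4.45 and 5.70 TPM with doxycycline in H1975. All doxycycline columns were lower, with a log2 change of -0.91 ± 0.09 (limma adjusted p = 7.5e-06). SFTA3 was listed at 0 in the other 2 lines. MBIP, a kinase-binding protein gene with its start at -200.5 kb, fell in H1975 (-0.37 ± 0.08, limma adjusted p = 0.0025), in COLO 201 (-0.48 ± 0.07, adjusted p = 6.4e-05) and in RKO (-0.99 ± 0.19, adjusted p = 4.4e-04). In RKO the MBIP call was lost with no minimum TPM (adjusted p = 0.053). On the other side, NKX2-8, a homeodomain paralog, was not called in H1975 (0.11, adjusted p = 0.40). SLC25A21, a mitochondrial carrier gene, was not called there either (-0.09, adjusted p = 0.49). PAX9, a paired box factor 136.4 kb away, was called higher in H1975 (0.25 ± 0.08, limma adjusted p = 0.026), and the call was lost in 7 of 14 alternatives. These were leaving out vehicle column 1, vehicle column 3, doxycycline column 1 or doxycycline column 3 (adjusted p = 0.064 to 0.11), no minimum TPM (0.062), small noncoding and mitochondrial genes removed (0.052) and the column number as a block (0.056).

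**Figure D3:**
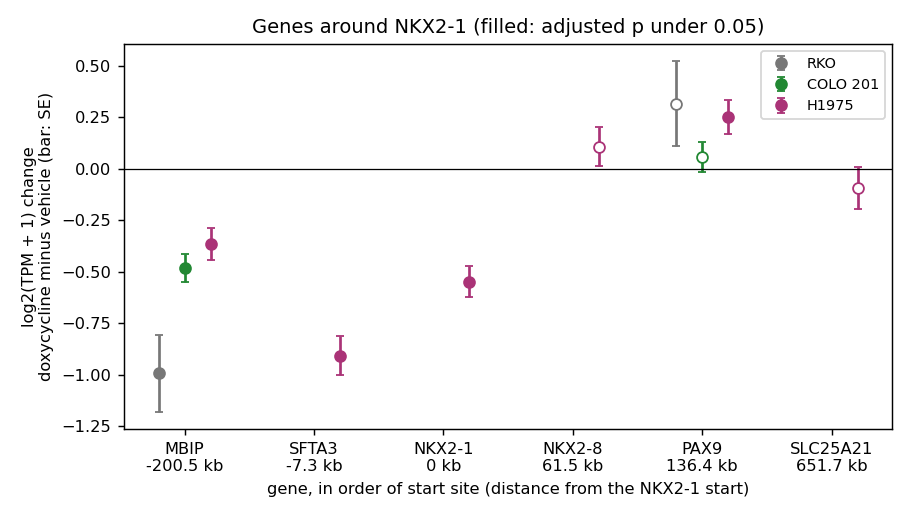
Change of the genes around NKX2-1, ordered by the distance of their start from the NKX2-1 start, on the log2(TPM + 1) scale with standard errors, for the 3 lines. Filled points passed an adjusted p of 0.05. Negative distances lie downstream of the NKX2-1 start, as the gene is on the minus strand. SFTA3 and NKX2-1 were tested in H1975 alone, and MBIP was lower in all 3 lines.

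Other lung and epithelial genes in H1975 were read from lists, beside the 38.5% of all tested genes that were called. Among other type 2 genes, 6 of 13 were tested and 1 rose and 4 fell. SFTA3 is given above; LAMP3, a lysosome protein of lamellar bodies, fell from 40.4 to 29.8 TPM (-0.42 ± 0.07, limma adjusted p = 3.1e-04). LPCAT1, which makes surfactant phosphatidylcholine, fell from 231 to 184 TPM (-0.33 ± 0.06, adjusted p = 0.0014). ABCA3, the lipid pump of lamellar bodies, went up, from 33.4 to 42.3 TPM (0.33 ± 0.07, adjusted p = 0.0023). SFTPC, the defining surfactant protein of type 2 cells, was listed at 0 in every column, and SFTPA1 and SFTPA2 did not exceed 0.06 TPM.

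Of the 8 alveolar type 1 genes tested, 0 rose and 3 fell, among them AGER, a receptor of the type 1 cell membrane (-0.45 ± 0.11, limma adjusted p = 0.0068). CAV1, a caveolar coat protein, and EMP2, a tetraspan membrane protein, were called lower too. The CAV1 call was lost without doxycycline column 1 (adjusted p = 0.051), and the EMP2 call without that column (adjusted p = 0.10) or vehicle column 3 (adjusted p = 0.059), and with the column number as a block (adjusted p = 0.058). Of 5 basal and squamous genes tested, 1 rose and 3 fell, or 0 and 3 after rescaling by the median ratio. SOX2 (-0.74, limma adjusted p = 8.5e-05) and TP63 (-0.67, adjusted p = 8.7e-05), transcription factors of basal cells, fell from 3.78 to 1.87 and from 5.16 to 2.88 TPM. Of 3 airway secretory genes tested, 1 rose and 1 fell, or 0 and 1 after rescaling, and the one that fell was LCN2, a secreted siderophore-binding protein (-0.77, limma adjusted p = 1.6e-05). Of 7 ciliated cell genes tested, 1 rose and 2 fell, with CAPS at -0.73. FOXJ1, the master factor of cilia, was not called (0.14, adjusted p = 0.20).

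Of 16 other lung and endoderm transcription factors tested in H1975, 5 rose and 2 fell. EHF, an ETS factor of epithelia, rose from 5.20 to 9.78 TPM (0.80 ± 0.10, limma adjusted p = 4.8e-05). ETV5, an ETS factor of FGF signalling and of type 2 cells, went up from 60.7 to 84.8 TPM (0.48 ± 0.07, adjusted p = 8.1e-05). ID2, an inhibitor of helix-loop-helix factors in lung tip cells, fell (-0.61). After rescaling this list stood at 4 higher and 3 lower. Of 10 simple epithelial keratin and adhesion genes tested, 2 rose and 2 fell, and KRT18, the highest in level, was not called (0.02, limma adjusted p = 0.82). KRT80 fell from 113 to 50.4 TPM (-1.15 ± 0.07, adjusted p = 6.1e-08). After rescaling these stood at 1 higher and 3 lower.

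Genes of other cell types were read beside these. Of 8 mesenchymal genes tested in H1975, 0 rose and 6 fell (7 after rescaling), with summed levels of 873 to 957 TPM in vehicle and 697 to 772 TPM in doxycycline columns; COL1A1 fell by 1.55 on the log2 scale. Of the 7 leukocyte and endothelial genes in the table, only CD68, a lysosome protein that epithelial cells can make, was tested and rose from 160 to 304 TPM. PTPRC, the defining leukocyte gene, did not exceed 0.0264 TPM. The gastrointestinal list had 1 tested gene, ANXA10, higher with doxycycline (1.78 against 0.576 TPM, change 0.82, limma adjusted p = 8.1e-05), while CDX2 was listed at 0. ANXA10 met the 1 TPM minimum through its doxycycline columns, so its entry into the test and its direction are not independent. The 2 neuroendocrine genes tested included SYP, which rose (0.52, limma adjusted p = 8.5e-04). Their part in the changes of the lung lineage genes was not tested.

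**Figure D4:**
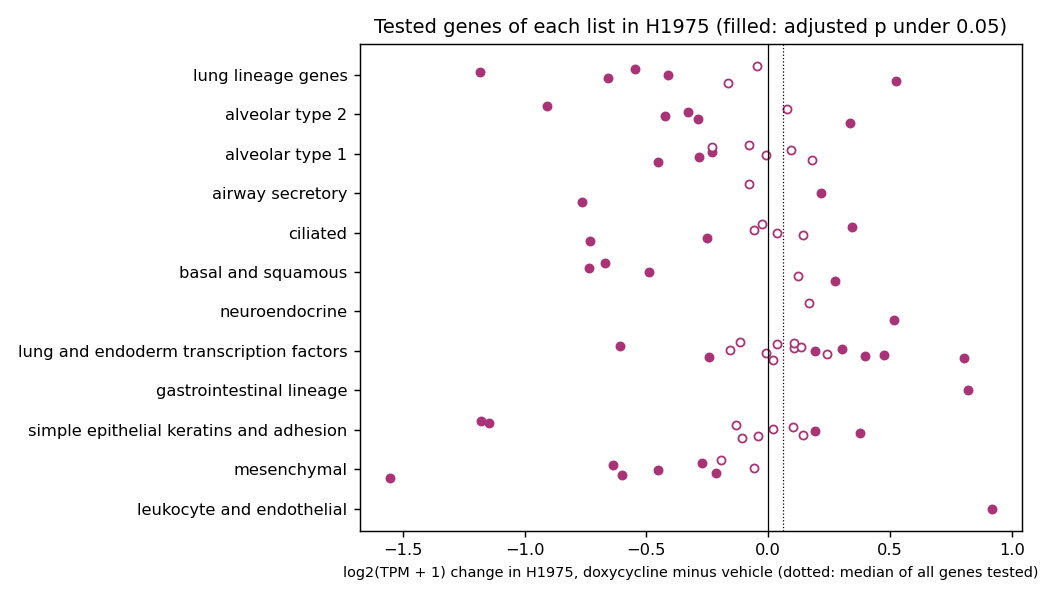
Change in H1975 of every tested gene of the lung lineage set and of the 11 lists, doxycycline minus vehicle on the log2(TPM + 1) scale. Filled points passed an adjusted p of 0.05, and the dotted line marks the median of all genes tested, 0.06. Of the tested lung lineage genes, 5 points are filled, 4 of them on the left.

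In COLO 201, 5 of the lineage genes were above 0 in at least 1 column, and FOXA2, KRT7 and FOXA1 were tested. Of these 3, FOXA1 and KRT7 were called, both higher, so 2 of 3, where 61.0% of 11566 tested genes were called. The median change of all tested genes was 0.12, with 5312 calls higher and 1740 lower, and after rescaling by the median ratio 3298 were higher and 3319 lower. FOXA1 read 1.98, 2.18 and 1.83 TPM with vehicle and 3.80, 4.02 and 3.24 TPM with doxycycline, and no doxycycline column overlapped a vehicle column. Its mean rose from 1.99 ± 0.174 to 3.69 ± 0.398 TPM (SD, n = 3), a log2 change of 0.64 ± 0.08 (limma adjusted p = 3.0e-05), or 0.55 after rescaling. KRT7 read 9.69, 10.2 and 9.25 TPM with vehicle and 12.2, 11.8 and 12.0 TPM with doxycycline, a log2 change of 0.28 ± 0.06 (adjusted p = 7.6e-04), or 0.17 after rescaling (adjusted p = 0.0097).

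FOXA2 was the highest member in COLO 201, at percentile 88.7 of the genes above 0 there. It read 70.0, 73.5 and 67.9 TPM with vehicle and 73.3, 76.0 and 71.0 TPM with doxycycline. The arms overlapped and the change was 0.06 ± 0.04 (limma adjusted p = 0.27), or -0.06 after rescaling. NAPSA stayed under the minimum, at 1.01, 0.562 and 0.648 TPM with vehicle and 0.704, 0.543 and 0.519 TPM with doxycycline. HOPX was above 0 in 1 column, and NKX2-1, SFTPB, SFTPD, SLC34A2 and SCGB3A2 were listed at 0. HNF4A, the hepatic and intestinal nuclear receptor that marks gut epithelium, was at 61.3 TPM with vehicle in COLO 201, and CDX2, an intestinal homeodomain factor, was under the minimum at 0.124, 0.120 and 0.0433 TPM with vehicle and 0.823, 1.02 and 0.831 TPM with doxycycline. The CDX2 arms did not overlap, higher with doxycycline, and the gene was not tested.

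Among type 2 genes outside the set, 7 were tested in COLO 201, with 2 higher and 2 lower, where 61.0% of all tested genes were called. LPCAT1 fell from 99.6 to 50.9 TPM (-0.96 ± 0.04, limma adjusted p = 5.4e-09), the same direction as in H1975. CTSH, a cathepsin that processes surfactant protein precursors, rose from 85.7 to 132 TPM (0.62 ± 0.04, adjusted p = 1.6e-07), while in H1975 it fell (-0.29, adjusted p = 0.0097). SFTPA2, singled out after its values were seen, read 0.725, 0.792 and 0.976 TPM with vehicle and 2.16, 2.19 and 2.31 TPM with doxycycline in COLO 201. With CTSH it makes up the 2 genes counted as higher. SFTPA2 met the 1 TPM minimum through its doxycycline columns, so its entry into the test and its direction are not independent. Its near-identical paralog SFTPA1 makes the split of reads between the pair uncertain.

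In RKO, FOXA1 was the only member tested, and 0 of 1 was called (0 at an unadjusted p under 0.05 too), where 18.1% of 10551 tested genes were called, 220 higher and 1695 lower, or 1442 and 1497 after rescaling. The median change of all tested genes there was -0.26. FOXA1 read 1.15, 2.01 and 1.93 TPM with vehicle and 1.36, 1.83 and 1.63 TPM with doxycycline, a change of -0.04 ± 0.22 (limma adjusted p = 0.92) whose sign turned after rescaling, to 0.14. KRT7 was not tested, at 4.53, 0.315 and 0.363 TPM with vehicle and 0.059, 0.016 and 0.037 TPM with doxycycline. Its highest value belongs to vehicle column 1, the column that stood apart. It crossed the minimum in 5 alternatives, through that column. It was called without vehicle column 2 (-1.40, limma adjusted p = 0.0011) and was not called without doxycycline column 1, 2 or 3 (adjusted p = 0.30, 0.18 and 0.058) or with small noncoding and mitochondrial genes removed (adjusted p = 0.15). With no minimum the change was -1.05 (adjusted p = 0.35). HOPX was above 0 in vehicle column 1 alone, and NKX2-1, FOXA2, NAPSA, SFTPB, SFTPD, SLC34A2 and SCGB3A2 were listed at 0.

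Levels between lines were set on a common scale, TPM rescaled to a fixed sum over the 18548 genes shared by the tables without small noncoding and mitochondrial genes, as a description with no test. FOXA2 averaged 90.6 in vehicle and 90.2 in doxycycline columns of COLO 201, 20.7 and 29.3 in H1975, and 0 in RKO. KRT7 averaged 3508 and 2539 in H1975, 12.5 and 14.8 in COLO 201, and 6.25 and 0.170 in RKO. The RKO vehicle mean of KRT7 had an SD of 8.79 and was 1.18 without vehicle column 1. FOXA1 averaged 5.92 and 6.78 in RKO, 3.41 and 2.80 in H1975, and 2.56 and 4.53 in COLO 201, with the RKO vehicle mean at 6.79 without vehicle column 1. On the deposited TPM scale the FOXA1 vehicle levels were instead highest in H1975.

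A joint limma fit gave the difference between the changes of any 2 lines, and members are given where they were above 0 in both arms of each. The shares of all genes called follow a wider rule, a mean of at least 1 TPM in either line. They include genes at 0 in the other line, so member counts and shares are not alike. FOXA1 differed between H1975 and COLO 201, with a difference of -0.81 ± 0.16 (limma adjusted p = 0.0018). FOXA2 differed by 0.47 ± 0.08 (adjusted p = 7.5e-04) and NAPSA by -1.06 ± 0.18 (adjusted p = 4.6e-04), where NAPSA was under the minimum in COLO 201. These are 3 of the 4 members given for H1975 against COLO 201, where 16.7% of 12585 genes were called under the wider rule. KRT7 differed by -0.69 ± 0.50 (adjusted p = 0.41) in the fit of all 18 columns. Joint fits without RKO columns were added after the data were seen. Its difference was -0.69 ± 0.12 without RKO vehicle column 1 (adjusted p = 1.3e-04) and -0.69 ± 0.09 with the columns of H1975 and COLO 201 alone (adjusted p = 2.3e-05), the latter in a fit where 41.6% of genes were called. FOXA1, FOXA2 and NAPSA kept their calls without RKO vehicle column 1.

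Against RKO, FOXA1 and KRT7 were the members above 0 in both arms of each line. The FOXA1 change in COLO 201 exceeded that in RKO by 0.68 ± 0.16 (limma adjusted p = 0.0029), or 0.84 ± 0.12 without RKO vehicle column 1 (adjusted p = 5.6e-06), and the call was lost when small noncoding and mitochondrial genes were removed (0.44, adjusted p = 0.076). The KRT7 change in COLO 201 exceeded that in RKO by 1.33 ± 0.50 (adjusted p = 0.038), and by 0.65 ± 0.13 without RKO vehicle column 1 (adjusted p = 3.0e-04). With all columns that call was lost after rescaling (adjusted p = 0.083) and with no minimum (adjusted p = 0.066). Thus 2 of the 2 members given were called for COLO 201 against RKO, where 47.1% of 11650 genes were called under the wider rule. For H1975 against RKO, FOXA1 (-0.13, adjusted p = 0.54) and KRT7 (0.64, adjusted p = 0.32) were not called, where 38.2% of 12140 genes were. Both turned sign without RKO vehicle column 1, to 0.03 and -0.04, and were not called there either.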

How the data were processed

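Polyadenylated RNA was sequenced with a stranded TruSeq kit after RNeasy Plus extraction, per the labels' protocols. STAR, DESeq2 and GRCh38 are named in the submitters' processing notes, with no versions; the steps from reads to values are not given in the sources used here. The authors deposited TPM in 1 table per line, with 6 columns each, and no read totals. The arm of each column was read from its heading. In COLO 201, 28 entries named as dates were left out. In RKO small noncoding genes took 68.0% to 79.0% of TPM, against at most 0.00889% in COLO 201 and 0.00039% in H1975. The mitochondrial share was 0.0% for RKO columns, 16.9% to 23.0% for COLO 201 columns and 16.1% to 22.5% for H1975 columns.

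The test was limma (version 3.58.1, R version 4.3.3), two-sided and with trend, on log2(TPM + 1). It was applied to the genes whose mean reached 1 TPM over the 6 columns, with Benjamini-Hochberg adjustment over all genes tested in a line. Its recovery of planted changes was checked on simulated data. Changes were planted only in genes well above the 1 TPM minimum, and were larger than most member changes. The check therefore does not cover members at low levels. A joint limma fit of all 18 columns tested differences between lines. The genes and 11 lists (alveolar type 2, alveolar type 1, airway secretory, ciliated, basal and squamous, neuroendocrine, lung and endoderm transcription factors, gastrointestinal, simple epithelial keratins and adhesion, mesenchymal, leukocyte and endothelial) were chosen with earlier results of these data known. Named genes were the members, MUC1, and up to 4 called genes per list in H1975 with the smallest adjusted p, up to 2 in the other lines, and the most abundant gene of a list, of which the text gives a selection; other names were chosen after their values were seen. Positions are from GENCODE 29 and promoters from RefSeq GRCh38.p14. Alternatives were pseudocounts of 0.1 and 5, minimum levels of 0 and 5 TPM, median ratio rescaling, removal of small noncoding and mitochondrial genes, no trend, the column number as a block and each column left out.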

Additional observations from a re-analysis of the deposited data

Results flagged for a closer look

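In RKO, vehicle column 1 lay far from the other 5 columns for KRT7 (4.53 TPM), HOPX (0.331 TPM) and MUC1 (15.2 TPM), as judged by Dixon's gap test over the 6 columns of the line, both arms mixed. In COLO 201, HOPX was above 0 in 1 column only, at 0.0341 TPM. The gap test flags some groups by chance. UCHL1 stood at 40.9 TPM in that RKO column and was listed at 0 in the other 5.

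The change with doxycycline differed between lines for FOXA1 (COLO 201 minus RKO 0.68, H1975 minus COLO 201 -0.81), for KRT7 (COLO 201 minus RKO 1.33), for FOXA2 (H1975 minus COLO 201 0.47) and for NAPSA (H1975 minus COLO 201 -1.06), each by limma's test of the difference in the joint fit. Without RKO vehicle column 1 the KRT7 difference was 0.65. The COLO 201 minus RKO calls held in 6 of 7 alternatives for FOXA1 and in 5 of 7 for KRT7.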

How the results depend on the processing

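Each tested change of a member in a line was recomputed under every alternative that tested it, which gave 146 recomputed changes over the 3 lines. Of these, 137 kept their direction and side of the threshold, and 9 changed sign, all of them uncalled. The calls of NKX2-1, FOXA2, HOPX, NAPSA and KRT7 in H1975 held in every alternative that tested them (highest adjusted p 0.0029, 0.0013, 0.0023, 0.0032 and 0.017). FOXA1 in RKO turned to 0.14 after rescaling and 0.19 with small noncoding and mitochondrial genes removed, and ran from -0.19 to 0.049 with single columns left out. FOXA2 in COLO 201 turned to -0.065 after rescaling and -0.0083 with those genes removed, and PAX9 there to -0.038 after rescaling. SLC34A2 in H1975 ran from -0.14 to 0.070 with single columns left out. With a minimum of 5 TPM, members called were 3 in H1975 (NKX2-1, FOXA2 and KRT7, all that were tested). Of 10412 genes tested there, 2782 were called higher and 1224 lower. In COLO 201, 1 member was called, KRT7, while FOXA2 was tested and not called. Of 9672 genes tested there, 4565 were called higher and 1497 lower. With single columns left out, members called were 4 to 5 in H1975 and 0 to 1 in RKO, and genes called were 3075 to 5206 in H1975 (fewest without vehicle column 1) and 595 to 2410 in RKO (595 without doxycycline column 1, 994 without doxycycline column 3). In RKO, 28 genes were called with no minimum TPM and 2939 after rescaling; the cause was not tested. Without RKO vehicle column 1, the difference H1975 minus RKO turned to 0.028 for FOXA1 and -0.041 for KRT7. KRT7, H1975 minus RKO, was -0.047 with a pseudocount of 5 and 2.41 with 0.1 (limma adjusted p = 0.036); H1975 minus COLO 201 was -0.62 with a pseudocount of 5 (adjusted p = 0.049). The MUC1 call in RKO was lost after rescaling (adjusted p = 0.15) and in 4 other settings beside single columns left out. For RKO, the deviations of same-numbered columns correlated at 0.29, 0.27 and -0.01, and those of different-numbered columns at -0.32 to 0.20. For COLO 201 the values were -0.05, 0.15 and 0.28, against -0.28 to 0.18. For H1975 they were 0.16, -0.42 and -0.35, against -0.33 to 0.46. Such correlations, from 3 columns per arm, cannot settle whether the numbers pair the columns. Blocking on the column number gave 2415 (RKO), 7759 (COLO 201) and 3738 (H1975) genes called, against 1915, 7052 and 4759 as reported. Members called stayed at 0, 2 and 5. Of 33 list genes and neighbours named in H1975 and called there, 26 kept the call in every alternative and CAV1, CCDC78, EMP2, ESRP1, KRT15, PAX9 and SLPI lost it in some; these alternatives were chosen after seeing the data. Without read totals, precision for genes near 1 TPM cannot be stated.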
